A study of Citrus sinensis with 30 samples.

Results

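The genes described here encode the mitochondrial machinery of respiration and the proteins that bypass or uncouple it, in the juice sacs of stored orange fruit. They were taken by annotation alone: a gene was included when its deposited description named an NADH dehydrogenase, cytochrome b-c1 or cytochrome c oxidase subunit, a ubiquinol or alternative oxidase, an uncoupling protein or a mitochondrial ATP synthase. Of 24179 genes in the deposited table, 29 matched, and all 29 were among the 16578 genes that reached an FPKM (fragments mapped to a gene, scaled by transcript length and library size) of at least 1 in at least 3 libraries. They comprised 9 genes of complex I, 4 of complex III, 3 of complex IV, 3 of the ATP synthase, 6 assembly factors, 1 mitochondrial alternative oxidase, 1 plastid ubiquinol oxidase and 2 uncoupling proteins. The label did not cover every member, because ubiquinol oxidase 4 is annotated to chloroplasts and chromoplasts.

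Fruit of 2 Citrus sinensis varieties were stored when mature, the blood orange ‘Tarocco’ (TBO) and the sweet orange ‘Bingtangcheng’ (BTSO), and juice sac RNA was sequenced on 5 days counted from the start of storage (days after storage, DAS): 0, 15, 30, 60 and 90. Each of the 10 groups had 3 libraries, 30 in all, labelled as biological replicates. TBO colors its flesh with anthocyanin, whereas BTSO is a sweet orange selected in Hunan and low in acid. The paper reports more citrate in TBO than in BTSO throughout storage. The fruit of each variety came from 1 purchase and were kept cold in individual bags, so variety and lot of fruit cannot be told apart. Both varieties had the same storage, and the groups carried no other treatment or transgene. The methods took 5 fruit per variety and day for 3 replicates and do not say how fruit were divided among libraries, so the p-values below measure the spread between these libraries. In whole juice sacs, fewer cells of a type and less RNA per cell cannot be told apart.

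In mitochondria, complex I (NADH dehydrogenase) and other dehydrogenases pass electrons to ubiquinone, complex III (cytochrome b-c1) passes them to cytochrome c, and complex IV (cytochrome c oxidase) passes them to oxygen. The proton gradient so built drives the ATP synthase. Plants also hold an alternative oxidase that takes electrons directly from ubiquinone without pumping protons, and uncoupling proteins that are carriers of the inner membrane. Respiration continues in harvested citrus fruit and draws on the sugars and organic acids of the juice sacs.

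Totals of estimated counts lay between 51894138 and 75833189 per library. Summed over the 29 genes, the FPKM of TBO was 1365 ± 218 (SD, n = 3) at 0 DAS and 935 ± 82.5 (SD, n = 3) at 90 DAS. For BTSO the sums were 1907 ± 137 and 1264 ± 93.8 (SD, n = 3). At 0 DAS the replicates stood at 1214, 1614 and 1266 in TBO and at 1764, 2037 and 1920 in BTSO. TBO replicate 2 was thus the highest of its group, and the varieties did not overlap on that day. At 90 DAS the sums were 1012, 848 and 945 in TBO against 1164, 1278 and 1350 in BTSO, again without overlap. Genes of other tissues moved as well: the summed FPKM of 7 green tissue genes, all of them above the expression filter, ran from 30.0 to 41.5 at 0 DAS and from 16.8 to 21.7 at 90 DAS over both varieties. The summed FPKM of 8 xylem genes, of which 3 passed the filter, lay between 4.60 and 18.2 in TBO and between 37.9 and 52.8 in BTSO at 30 DAS, and between 17.7 and 22.3 in TBO and between 33.3 and 67.9 in BTSO at 60 DAS. The summed FPKM of 5 seed genes, 3 of them above the filter, was lower in TBO without overlap at 0 DAS (12.2 to 16.1 against 17.4 to 19.6), at 30 DAS (16.7 to 20.7 against 25.1 to 25.8) and at 90 DAS (12.9 to 17.2 against 17.9 to 27.8), and overlapped on the other days. That of 7 epidermal genes, 3 of them above the filter, was higher in TBO without overlap at 30 DAS (8.41 to 9.17 against 6.32 to 7.41) and 60 DAS (10.1 to 12.2 against 6.35 to 9.04), and by a narrow gap at 15 DAS. The part of these tissues in the results was not tested.

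The comparison of the varieties on each day asked where respiratory transcripts differed between the blood and the sweet orange. Subunit genes of complexes I, III and IV and of the ATP synthase were mostly lower in TBO, on every day of storage. By limma at an adjusted p under 0.05, 16 of the 29 genes were lower in TBO and 0 were higher at 0 DAS, where 20.0% of all genes tested were lower and 27.2% were higher. At 15 DAS, 14 were lower and 3 higher (17.3% and 34.2% of all genes, 51.5% in all), and with upper-quartile scaling of the libraries 20 were lower and 1 higher. At 30 DAS, 19 were lower and 2 higher (22.3% and 30.3% of all genes, 52.6% in all). At 60 DAS, 15 were lower and 1 was higher (22.8% and 28.1%, 51.0% in all), and at 90 DAS 13 were lower and 2 higher (20.4% and 32.3%). Averaged over the 5 days, 20 were lower and 2 higher, against 32.3% and 45.4% of all genes (77.7% in all). In either direction 55.2%, 58.6%, 72.4%, 55.2% and 51.7% of the members were called on the 5 days in order, against 47.1%, 51.5%, 52.6%, 51.0% and 52.8% of all genes.

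The differences were moderate. The median log2 difference (TBO minus BTSO, of FPKM + 1) over the 29 genes was -0.31, -0.28, -0.34, -0.39 and -0.36 on the 5 days in order, where the median over all genes tested was 0.06, 0.13, 0.06, 0.03 and 0.08. Relative to the median of all genes, the members' median was thus -0.37, -0.41, -0.40, -0.42 and -0.44. Differences past 1 on the log2 scale were called for 0, 1, 2, 1 and 1 members on these days, against 7.80%, 8.87%, 10.7%, 11.3% and 10.8% of all genes, and for 1 member averaged over days, against 8.04%. A set of 10 genes was called lower in TBO on all 5 days, against 8.28% of all genes, and 0 were called higher on all 5 days, against 13.6%. Whichever library was left out, 3 of the 10 kept all 5 calls (Cs1g15410, Cs1g16240 and Cs5g07370), and each of the other 7 lost the call on at least 1 day without some library. For 7 genes every TBO library was below every BTSO library on all 5 days, against 8.79% of all genes. Without TBO replicate 1 the count at 0 DAS was 9 in place of 16, and without BTSO replicate 2 the count at 15 DAS was 11 in place of 17, still 0 and 1 of them higher in TBO.

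**Figure D1:**
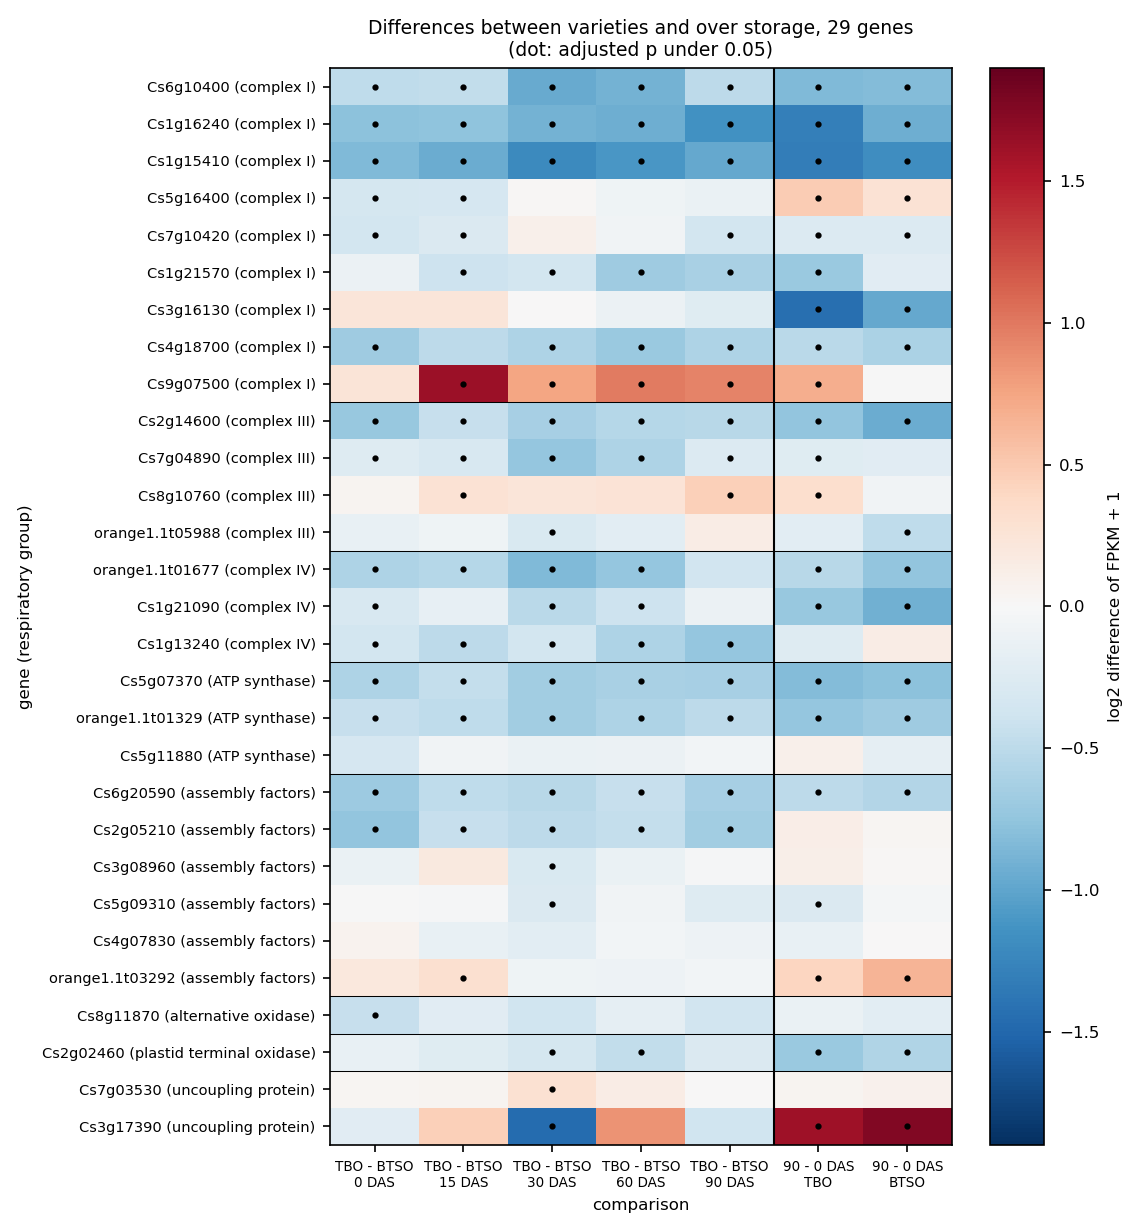
Log2 difference of FPKM + 1 for the 29 genes (rows, by respiratory group) between TBO and BTSO on each of the 5 days and between 90 and 0 DAS in each variety (columns); blue is lower in TBO or at 90 DAS, and a dot marks an adjusted p under 0.05 in limma. The 10 genes with 5 blue dotted cells on the left are those called lower in TBO on every day. Cs9g07500 is the only complex I gene with red dotted cells on the left.

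Transcript length moved with the result. Ranked by estimated count per FPKM, which follows transcript length, the genes tested were cut into 4 equal classes, which held 9, 11, 9 and 0 members from the shortest to the longest. In the 3 classes with members the members' median difference averaged over days was -0.59, -0.42 and -0.15, while all genes had -0.02, -0.01 and 0.10, with 0.23 in the longest class. Within each of the 3 classes the members' median was below that of all genes. The part of length in the result was not tested.

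Of the subunit genes called lower in TBO, those furthest below BTSO belonged to complex I. The gene for an alpha subcomplex subunit 2-like protein (Cs1g15410), an accessory subunit, was at 65.1, 105 and 71.6 FPKM in the 3 TBO libraries and at 131, 148 and 146 in the 3 BTSO libraries at 0 DAS. At 90 DAS it was at 37.2, 25.1 and 31.9 in TBO and at 55.2, 61.9 and 68.7 in BTSO. The varieties did not overlap on any of the 5 days. The log2 difference ran from -0.84 ± 0.15 (SE; limma adjusted p = 8.7e-05) at 0 DAS to -1.21 ± 0.15 (adjusted p = 5.5e-07) at 30 DAS and was -0.97 at 90 DAS.

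Alpha subcomplex subunit 6 (Cs1g16240), another accessory subunit, behaved alike in its values: 84.8, 128 and 93.5 FPKM in TBO against 154, 183 and 183 in BTSO at 0 DAS. At 90 DAS the TBO libraries stood at 43.5, 38.8 and 38.6 and the BTSO libraries at 82.7, 89.9 and 101. The log2 difference was -0.78 ± 0.12 (SE) at 0 DAS and -1.16 ± 0.12 at 90 DAS, with limma adjusted p of 1.1e-05 and 2.9e-08. No library of TBO reached the lowest BTSO library on the same day.

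Alpha subcomplex subunit 1 was encoded by a pair of genes that differed in level and in direction. The abundant gene, Cs6g10400, had 101, 149 and 111 FPKM in TBO and 155, 172 and 173 in BTSO at 0 DAS, and at 30 DAS 79.9, 77.7 and 74.6 in TBO against 130, 191 and 140 in BTSO. It was called lower in TBO on all 5 days, most at 30 DAS (-0.96 ± 0.15, SE; limma adjusted p = 8.5e-06). At 0, 15 and 90 DAS the call was lost without 1 library each: TBO replicate 1 at 0 DAS (adjusted p = 0.066), BTSO replicate 2 at 15 DAS (0.059) and TBO replicate 2 at 90 DAS (0.060).

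The scarce gene, Cs9g07500, on chromosome 9 from 4650008 to 4650208 of the sweet orange genome (minus strand, build not given in the sources used here), had the opposite sign. At 15 DAS it was at 2.40, 2.71 and 3.74 FPKM in TBO and at 0.285, 0.0758 and 0.457 in BTSO. At 90 DAS it was at 1.25, 0.819 and 1.11 in TBO and at 0.167, 0.0456 and 0 in BTSO. The groups did not overlap on either day. It was called higher in TBO from 15 to 90 DAS, with a log2 difference of 1.63 at 15 DAS, and was not called at 0 DAS (0.24). At 30 DAS the call was lost with a pseudocount of 0.1 (adjusted p = 0.051) and in edgeR's test on the estimated counts (0.11). It reached an FPKM of 1 in 11 TBO and 2 BTSO libraries, so it passed the filter of 3 libraries only through TBO, where it was higher. Its differences are therefore given as a description, although the counts of members called higher in TBO include it. Both genes carry the same description and how reads of similar genes were assigned was not given, so the split between them is uncertain.

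**Figure D2:**
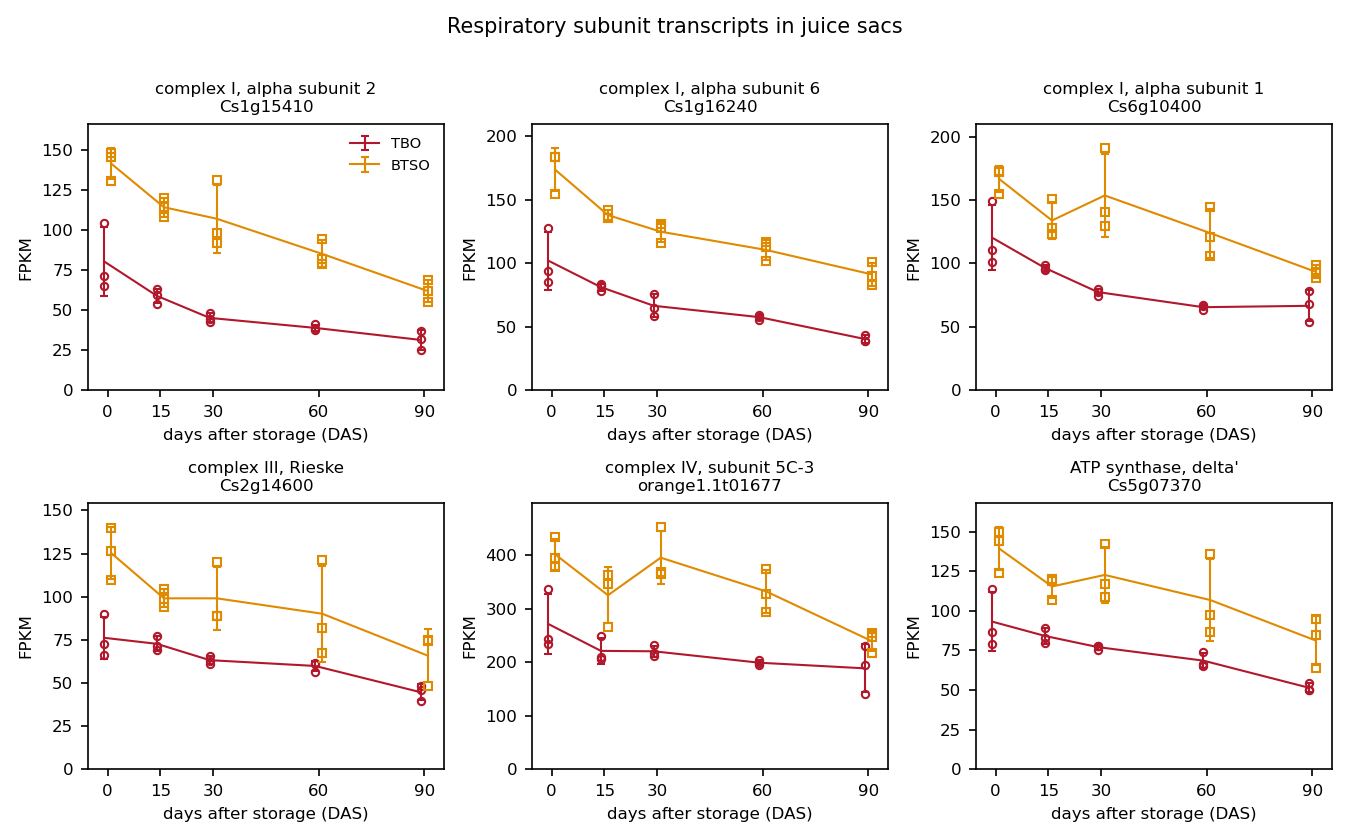
FPKM of 6 subunit genes (panels) against days after storage; open points are the 3 libraries per group, lines join group means and bars are the SD, with TBO in red circles and BTSO in orange squares, set 1 day apart for clarity. In the alpha 2 and alpha 6 panels the TBO points lie below the BTSO points on every day, and all 6 genes are lower at 90 than at 0 DAS in both varieties.

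The core subunits of complex I, which carry its flavin and iron-sulfur centers, differed less than alpha subunits 2 and 6. Iron-sulfur protein 7 (Cs4g18700) was called lower in TBO on 4 days, between -0.59 and -0.71, and was -0.49 (limma adjusted p = 0.058) at 15 DAS, where upper-quartile scaling called it (0.0072). Leaving out 1 library ended each of these 4 calls for at least 1 library, with adjusted p up to 0.15. Flavoprotein 1 (Cs7g10420), which binds NADH, was called lower in TBO at 0, 15 and 90 DAS (-0.35, -0.28 and -0.36), whereas at 30 DAS the TBO libraries stood at 52.3, 47.2 and 46.2 FPKM and the BTSO libraries at 45.5, 45.8 and 44.7. At 30 DAS its log2 difference of 0.10 was not called (limma adjusted p = 0.31). Iron-sulfur protein 1 (Cs5g16400), the largest core subunit, was called lower at 0 and 15 DAS (-0.34 and -0.32; at 15 DAS not without BTSO replicate 1, limma adjusted p = 0.069) and lay between -0.13 and 0.02 on the later days, of which upper-quartile scaling called 90 DAS (adjusted p = 0.019).

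Iron-sulfur protein 4, an accessory subunit, also had a pair of genes. Cs1g21570 was called lower in TBO from 15 DAS on (at 15 DAS the call was lost when any 1 of 3 libraries was left out, adjusted p up to 0.096) and reached -0.68 ± 0.14 (SE) at 60 DAS, where TBO had 28.2, 27.1 and 27.1 FPKM and BTSO 45.5, 41.6 and 46.8. At 30 DAS the call (-0.34, limma adjusted p = 0.045) was lost when any 1 of 14 libraries was left out. Cs3g16130, annotated as partial, was not called between the varieties on any day, with differences from -0.24 to 0.23, although upper-quartile scaling called it lower at 90 DAS (adjusted p = 0.028). At 0 DAS every TBO library was above every BTSO library. A limma fit of only the groups compared called it higher in TBO on that day (0.23, adjusted p = 0.044). How reads were divided between these genes is likewise uncertain.

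In complex III, the Rieske iron-sulfur subunit, which accepts electrons from ubiquinol, was again represented by 2 genes. Cs2g14600 was at 66.2, 89.7 and 72.6 FPKM in TBO and at 110, 140 and 127 in BTSO at 0 DAS, and was called lower in TBO on all 5 days (-0.44 to -0.72). At 60 DAS its call was lost without BTSO replicate 2 (adjusted p = 0.14), and at 15 and 90 DAS when any 1 of 5 and of 3 libraries was left out (adjusted p up to 0.095 and 0.078). The second gene, Cs8g10760, annotated as a low-quality protein model, was higher in TBO at 90 DAS, with 24.4, 26.1 and 24.8 FPKM against 18.8, 17.6 and 17.9 in BTSO (0.45 ± 0.11, SE; limma adjusted p = 0.0018). At 15 DAS it was called only at the threshold (0.27, adjusted p = 0.049), and that call was lost with upper-quartile scaling (0.63) and when any 1 of 20 libraries was left out. How reads were assigned between these genes was not given.

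Subunit 7-2 (Cs7g04890), a small accessory subunit of complex III, was lowest relative to BTSO at 30 DAS. TBO had 43.5, 43.1 and 44.4 FPKM and BTSO 68.5, 82.5 and 68.7 on that day, a log2 difference of -0.73 ± 0.09 (SE; limma adjusted p = 8.3e-07). Its differences at 0 and 90 DAS were -0.24 and -0.26, calls lost when any 1 of 3 and of 2 libraries was left out (adjusted p up to 0.22 and 0.11). Subunit 6 (orange1.1t05988;orange1.1t02698), known in other organisms as the hinge protein, was called by limma at 30 DAS (-0.30, adjusted p = 0.032), and not without TBO replicate 2 or 3 or BTSO replicate 2 or 3 of that day (adjusted p from 0.069 to 0.24). Upper-quartile scaling also called it lower at 0, 15 and 60 DAS (adjusted p = 0.038, 0.025 and 0.027).

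The most abundant member was the complex IV gene orange1.1t01677, a probable subunit 5C-3, with a mean of 279 FPKM over the 30 libraries. At 30 DAS it was at 217, 232 and 211 FPKM in TBO and at 365, 452 and 369 in BTSO, a log2 difference of -0.83 ± 0.16 (SE; limma adjusted p = 0.00010). At 90 DAS the TBO libraries spread from 141 to 230 and overlapped BTSO (217, 247 and 254). The difference on that day was -0.37 and was not called, whereas with upper-quartile scaling it was (adjusted p = 0.0050). Subunit 5b-1 (Cs1g13240) was called lower in TBO on all 5 days and most at 90 DAS (-0.73 ± 0.13), with 53.2, 51.4 and 52.3 FPKM against 89.3, 82.1 and 90.7, while at 0 and 30 DAS 4 libraries each ended the call when left out (adjusted p up to 0.16 and 0.11). Subunit 6a (Cs1g21090) was called lower at 0, 30 and 60 DAS (-0.30, -0.51 and -0.39), and at 0 and 60 DAS 4 libraries and 1 library ended the call when left out (adjusted p up to 0.16 and 0.077). Upper-quartile scaling called it at 15 DAS too (0.0091).

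Of the 3 ATP synthase genes, the small subunits of the central stalk were lower in TBO and the gamma subunit was not called. Subunit delta' (Cs5g07370) had 78.1, 78.0 and 75.3 FPKM in TBO and 109, 142 and 117 in BTSO at 30 DAS. It was called on all 5 days, from -0.45 to -0.65. Subunit epsilon (orange1.1t01329) was at 22.9, 25.4 and 22.6 in TBO and at 36.6, 43.1 and 34.7 in BTSO on that day, and was likewise called on all 5 days, from -0.43 to -0.66. Neither subunit overlapped between the varieties on any day. The call of epsilon at 0 DAS was lost without TBO replicate 1 (adjusted p = 0.063) or BTSO replicate 2 (0.052). Gamma (Cs5g11880), the rotating shaft, lay between -0.31 and -0.05 and was not called on any day, although upper-quartile and quantile scaling, the replicate block and edgeR called it lower at 0 DAS (adjusted p = 0.0078, 0.014, 0.023 and 0.0097).

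Assembly factors, which build the complexes without staying in them, divided. F1 complex assembly factor 1 (Cs2g05210), known in yeast as a chaperone of the ATP synthase beta subunit, was called lower in TBO on all 5 days. At 0 DAS it stood at 5.06, 8.13 and 5.95 FPKM in TBO and at 9.94, 12.4 and 11.4 in BTSO (-0.75 ± 0.16, SE; limma adjusted p = 0.00054), and at 15, 30 and 60 DAS the call was lost when any 1 of 4, 2 and 3 libraries was left out (adjusted p up to 0.096, 0.076 and 0.11). Complex I assembly factor 7 (Cs6g20590), a methyltransferase in humans, was called on all 5 days too, from -0.43 to -0.70. Its call at 60 DAS was lost without TBO replicate 3 (adjusted p = 0.066) or BTSO replicate 2 (0.067). Both genes separated the varieties without overlap on every day. The homolog of assembly factor 7 (orange1.1t03292), at 1.08 to 2.98 FPKM, was called higher in TBO at 15 DAS (0.30) and lost that call with upper-quartile scaling (adjusted p = 0.24) and when any 1 of 5 libraries was left out (up to 0.16). Assembly factor 6 (Cs5g09310) and COX11 (Cs3g08960), which in yeast delivers copper to complex IV, were called lower by limma at 30 DAS (-0.27 and -0.29), and 4 and 3 libraries ended these calls when left out (adjusted p up to 0.20 and 0.23). At 90 DAS Cs5g09310 was -0.24 and was called with a pseudocount of 0.1 (adjusted p = 0.048), upper-quartile (0.0028) and quantile scaling (0.0053), the replicate block (0.049) and edgeR (0.0022). COX15 (Cs4g07830), needed for heme A synthesis, was not called on any day, with differences between -0.20 and 0.06, while upper-quartile scaling called it lower at 15 and 30 DAS (adjusted p = 0.030 and 0.042).

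On single days limma called each oxidase and uncoupling gene less often than the genes called on all 5 days. Averaged over days, both oxidases were called lower in TBO (-0.29 for the plastid enzyme), and neither uncoupling protein was called. The mitochondrial alternative oxidase (Cs8g11870), annotated as ubiquinol oxidase, was at 9.80, 10.7 and 7.58 FPKM in TBO and at 11.3, 17.2 and 11.1 in BTSO at 0 DAS. At 90 DAS it was at 7.76, 8.73 and 8.72 in TBO and at 11.4, 10.7 and 11.3 in BTSO. The groups did not overlap on either day, and BTSO replicate 2 was the highest library at 0 DAS. Averaged over the 5 days the log2 difference was -0.31 ± 0.08 (SE; limma adjusted p = 0.00062). Of the single days, limma called it at 0 DAS (-0.44, adjusted p = 0.035), and there not without BTSO replicate 2 (0.26), TBO replicate 1 (0.053) or TBO replicate 3 (0.18). With upper-quartile scaling it was also called at 15, 30 and 90 DAS (adjusted p = 0.030, 0.010 and 0.0080).

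The plastid ubiquinol oxidase 4 (Cs2g02460), which oxidizes plastoquinol in carotenoid synthesis, was more abundant than the mitochondrial enzyme, with a mean of 38.6 against 10.2 FPKM over the 30 libraries. It was called lower in TBO at 30 and 60 DAS (-0.34 and -0.46), and 4 libraries ended the call at 30 DAS when left out (adjusted p up to 0.11). At 60 DAS its libraries were at 32.7, 29.7 and 27.6 FPKM in TBO and at 48.2, 41.0 and 36.6 in BTSO. At 90 DAS the difference was -0.28 with a limma adjusted p of 0.053, and with upper-quartile scaling it was called there (0.0014) and at 0 and 15 DAS (0.038 and 0.0011).

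Uncoupling protein 3 (Cs7g03530), on chromosome 7 from 1571036 to 1573249 (minus strand), was at 3.05 to 5.53 FPKM in the 30 libraries. A change of any kind over the 5 days was called in BTSO (limma adjusted p = 0.011) and not in TBO (0.50). Whether the varieties differed in their change over the 5 days was not tested. Uncoupling protein 3 was called higher in TBO at 30 DAS (0.29), with 5.14, 3.99 and 4.08 FPKM against 3.30, 3.91 and 3.05. That call was lost with upper-quartile scaling (adjusted p = 0.12) and without TBO replicate 1 (0.20) or BTSO replicate 1 (0.081) or 3 (0.13). Uncoupling protein 5 (Cs3g17390), known in Arabidopsis also as a dicarboxylate carrier, varied widely between replicates. At 30 DAS it was at 0.952, 1.34 and 1.28 FPKM in TBO and at 7.79, 4.57 and 3.39 in BTSO (-1.46 ± 0.48, SE; limma adjusted p = 0.013; 0.071 without BTSO replicate 1). At 60 DAS the TBO mean was the higher, with 11.4, 2.07 and 5.81 in TBO and 1.74, 4.66 and 1.80 in BTSO, and the groups overlapped. That difference of 0.86 was not called (adjusted p = 0.14).

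**Figure D3:**
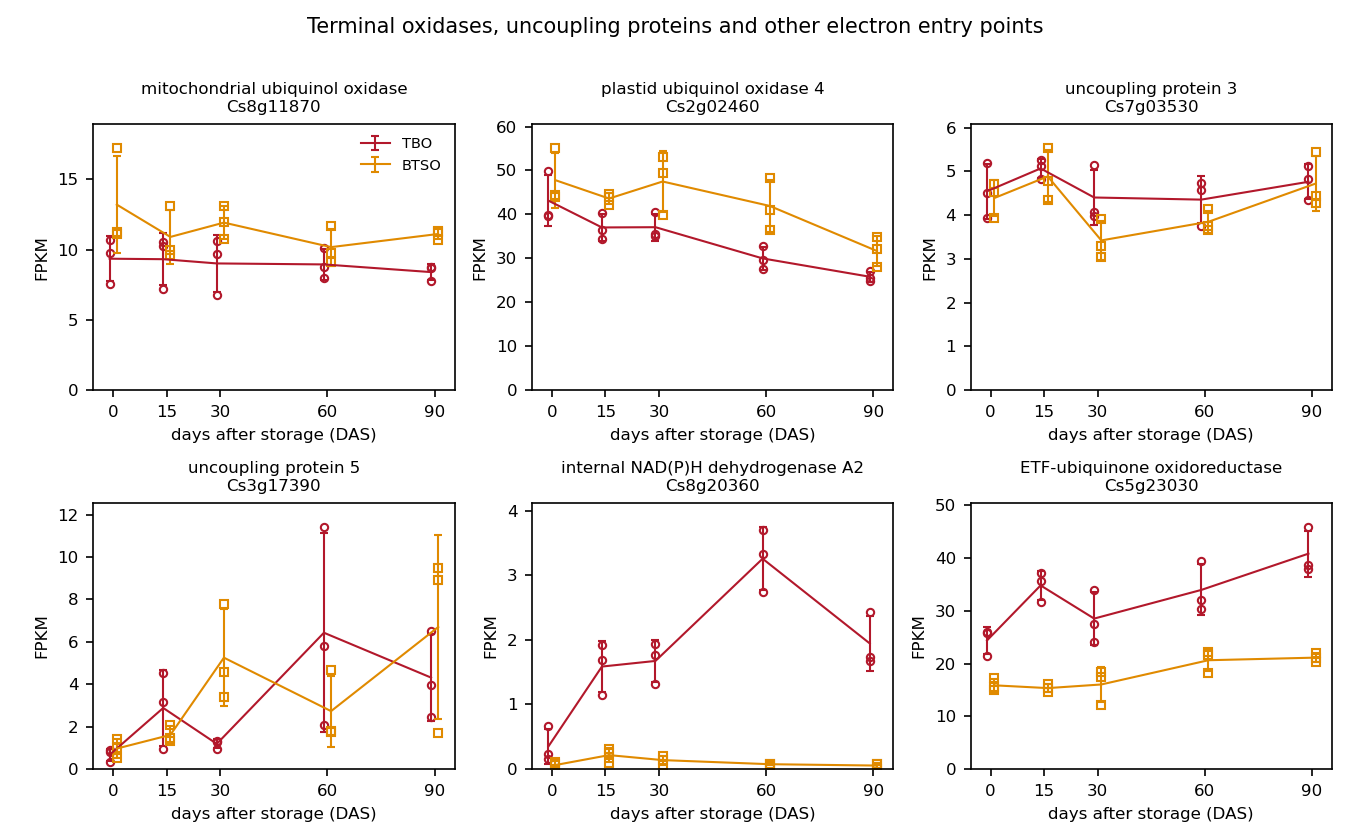
FPKM of the terminal oxidases, the uncoupling proteins and a pair of other enzymes that reduce ubiquinone (panels) against days after storage, drawn as library points with group means and SD bars, TBO in red circles and BTSO in orange squares. Uncoupling protein 5 has wide bars at 60 and 90 DAS, whereas the internal NAD(P)H dehydrogenase is at most 0.311 FPKM in any BTSO library.

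The comparison of 90 with 0 DAS asked how the same genes changed over storage. In both varieties most of the called genes fell. In TBO 16 genes were lower and 5 higher at 90 DAS (18.1% and 37.0% of all genes tested, 55.0% in all), and in BTSO 14 were lower and 3 higher (16.7% and 32.2%, 48.9% in all). The median log2 change was -0.25 in TBO and -0.22 in BTSO, against 0.16 and 0.13 over all genes. Changes past 1 on the log2 scale were called for 4 genes in TBO (1826 of all 16578 genes) and 2 in BTSO (7.29% of all genes). With quantile normalization the split in TBO was 17 lower and 2 higher. A set of 13 genes was called lower in both varieties, against 11.2% of all genes, 3 were called higher in both, against 23.4%, and 0 were called in opposite directions. The comparisons within a variety share no libraries. Without TBO 0 DAS replicate 2, the highest of its group, 15 genes in place of 21 were called in TBO, 11 of them lower. A change of any kind over the 5 days was called for 21 genes in each variety, near the 68.8% (TBO) and 72.4% (BTSO) of all genes.

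The largest falls were in complex I. The partial iron-sulfur protein 4 gene (Cs3g16130) went from 31.3, 30.1 and 28.6 FPKM to 11.1, 11.5 and 8.92 in TBO, a change of -1.44 ± 0.13 (SE; limma adjusted p = 4.2e-09). In BTSO it went from 26.0, 24.3 and 26.1 to 9.97, 15.4 and 12.7 (-0.97 ± 0.13, adjusted p = 2.0e-06). Neither variety overlapped between the days. Alpha subunit 2-like (Cs1g15410) changed by -1.32 in TBO and -1.18 in BTSO, alpha subunit 6 (Cs1g16240) by -1.30 and -0.92, and alpha subunit 1 (Cs6g10400) by -0.84 and -0.83. Cs1g21570 was called lower in TBO (-0.70) and not in BTSO (-0.21, called by edgeR with an adjusted p of 0.017), and the difference between these changes was not called (limma adjusted p = 0.11).

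Core subunits of complex I changed less or rose. Iron-sulfur protein 1 (Cs5g16400) rose from 62.1, 70.8 and 61.4 FPKM to 84.9, 99.0 and 89.3 in TBO (0.49 ± 0.10, SE; limma adjusted p = 0.00018). In BTSO it went from 78.1, 89.9 and 78.6 to 98.4, 94.0 and 106 (0.27, adjusted p = 0.023), a call lost with upper-quartile scaling (0.11) and without BTSO 0 DAS replicate 1 or 3 or 90 DAS replicate 3 (adjusted p from 0.079 to 0.093). Flavoprotein 1 (Cs7g10420) changed by -0.25 in each variety, in TBO not called without 0 DAS replicate 2 (adjusted p = 0.061). Iron-sulfur protein 7 (Cs4g18700) changed by -0.52 in TBO and -0.60 in BTSO, calls that 7 and 4 libraries ended when left out (adjusted p up to 0.20 and 0.16). The scarce alpha subunit 1 gene (Cs9g07500) rose in TBO (0.70), a call lost with quantile normalization (adjusted p = 0.11).

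Downstream, the Rieske gene Cs2g14600 changed by -0.75 in TBO and -0.94 in BTSO, cytochrome c oxidase subunit 6a (Cs1g21090) by -0.72 and -0.91, and subunit 5C-3 (orange1.1t01677) by -0.53 and -0.75. The ATP synthase subunits delta' (Cs5g07370) and epsilon (orange1.1t01329) changed by -0.83 and -0.73 in TBO and by -0.79 and -0.67 in BTSO. All 10 of these changes were called, and that of 5C-3 in TBO was lost without TBO 0 DAS replicate 2 (adjusted p = 0.058) or TBO 90 DAS replicate 2 (0.071). Subunit 5b-1 (Cs1g13240) and ATP synthase gamma (Cs5g11880) were not called by limma in either variety, while edgeR called 5b-1 lower in TBO (adjusted p = 0.011) and gamma lower in BTSO (0.045). In complex III, subunit 7-2 (Cs7g04890) changed by -0.24 in TBO, a call ended by any 1 of 4 libraries (adjusted p up to 0.17), and by -0.22 in BTSO (limma adjusted p = 0.055), where upper-quartile scaling (0.0071) and edgeR (0.0016) called it. Subunit 6 (orange1.1t05988;orange1.1t02698) was called lower in BTSO (-0.48) and was -0.20 in TBO (limma adjusted p = 0.15), where upper-quartile (0.015) and quantile scaling (0.0097) and edgeR (0.0035) called it. The second Rieske gene (Cs8g10760) was called higher in TBO (0.32), though not with upper-quartile scaling (adjusted p = 0.12) or when any 1 of 2 libraries was left out (up to 0.064).

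Among the assembly factors, Cs6g20590 fell (-0.50 and -0.56) and its homolog orange1.1t03292 rose (0.41 and 0.65), where the rise in TBO was lost with quantile normalization (adjusted p = 0.34). Assembly factor 6 (Cs5g09310) was called lower in TBO (-0.27), where 3 libraries ended the call when left out (adjusted p up to 0.18), and was -0.03 in BTSO, called there only with quantile normalization (adjusted p = 0.045). The plastid oxidase (Cs2g02460) fell from 39.7, 49.8 and 39.9 FPKM to 27.0, 24.8 and 25.6 in TBO (-0.71 ± 0.12, SE) and from 44.4, 55.0 and 43.9 to 28.0, 32.1 and 34.9 in BTSO (-0.58 ± 0.12). No change from 0 to 90 DAS was called for the mitochondrial alternative oxidase, at -0.13 ± 0.17 in TBO and -0.20 ± 0.17 in BTSO, or for uncoupling protein 3, at 0.06 ± 0.11 and 0.08 ± 0.11. Uncoupling protein 5 (Cs3g17390) rose from 0.785, 0.350 and 0.895 FPKM to 3.95, 2.46 and 6.53 in TBO (1.61 ± 0.48; limma adjusted p = 0.0066). In BTSO it rose from 0.512, 1.41 and 0.978 to 1.70, 9.50 and 8.89 (1.76 ± 0.48, adjusted p = 0.0040), and the days did not overlap in either variety.

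**Figure D4:**
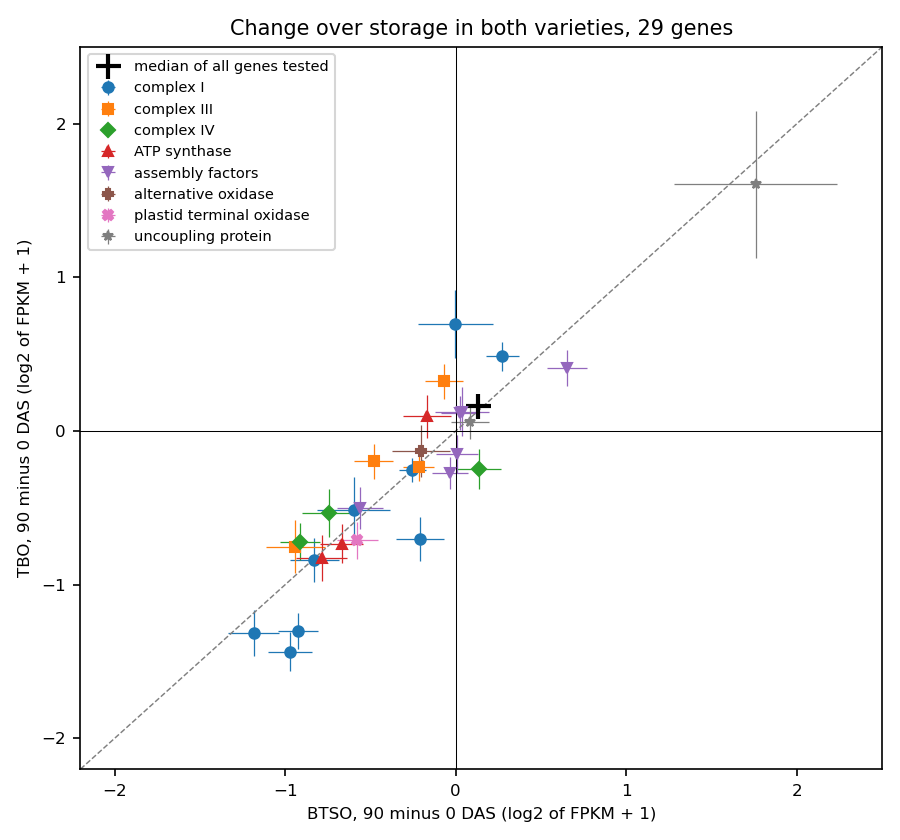
Log2 change of FPKM + 1 from 0 to 90 DAS in TBO (vertical axis) against BTSO (horizontal axis) for the 29 genes, colored by respiratory group, with bars of 1 SE, the line of equality (dashed) and the median of all genes tested (black cross, 0.13 and 0.16). Most subunit genes lie in the lower left quadrant, and uncoupling protein 5 lies furthest to the upper right (1.76 and 1.61).

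Whether storage changed the difference between the varieties was tested as an interaction from 0 to 90 DAS. By limma 0 of the 29 genes were called, where 12.4% of all genes were, and 6 had an unadjusted p under 0.05. edgeR's test on the estimated counts also called 0. The estimates ran from -0.49 (Cs1g21570, SE 0.20) to 0.70 (Cs9g07500, SE 0.31). Upper-quartile scaling called Cs1g21570 (adjusted p = 0.049). Quantile normalization called Cs1g21570 (0.015) and Cs1g16240 (0.016). Without BTSO 0 DAS replicate 2, Cs8g10760 was called (0.54, adjusted p = 0.017), and without BTSO 90 DAS replicate 1, Cs3g16130 was (-0.61, adjusted p = 0.022).

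A set of 7 genes showed both patterns, called lower in TBO on all 5 days and lower at 90 than at 0 DAS in both varieties, against 2.59% of all genes. They were Cs1g15410, Cs1g16240 and Cs6g10400 of complex I, the Rieske gene Cs2g14600, the ATP synthase genes Cs5g07370 and orange1.1t01329, and assembly factor Cs6g20590. The 0 and 90 DAS libraries enter both sets of comparisons.

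Other genes around the respiratory chain, 16 by description, of which 15 passed the filter, were called in both directions. Complex II, cytochrome c, the ADP,ATP and phosphate carriers, electron transfer flavoproteins and prohibitins were listed, and the carriers included 1 gene annotated to the endoplasmic reticulum and 1 to the chloroplast envelope. Averaged over days, 4 of the 15 were higher and 2 lower in TBO, against 45.4% and 32.3% of all genes (77.7% in all). Those higher include phosphate carriers Cs8g01230 and Cs7g19830, which reached an FPKM of 1 in 8 and 6 TBO libraries and in 2 BTSO libraries each. Both passed the filter only through TBO, so counts that include them are given as a description. From 0 to 90 DAS 3 rose and 2 fell in each variety. Of all genes, 37.0% rose and 18.1% fell in TBO, and 32.2% rose and 16.7% fell in BTSO. Succinate dehydrogenase subunit 5 (Cs3g23750), of complex II, was at 110 to 191 FPKM and was called in none of the variety or 90 minus 0 DAS comparisons.

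Other enzymes also feed the ubiquinone pool. Electron transfer flavoprotein-ubiquinone oxidoreductase (Cs5g23030), which feeds in electrons from amino acid and lipid breakdown, was at 37.9, 45.9 and 38.8 FPKM in TBO and at 22.0, 20.4 and 21.1 in BTSO at 90 DAS, and was called higher in TBO on all 5 days (0.59 to 1.13). The internal alternative NAD(P)H dehydrogenase A2 (Cs8g20360), one of 3 type II dehydrogenases added to the list after the table was seen, was at 3.70, 2.74 and 3.33 FPKM in TBO and at 0.0625, 0.0818 and 0.0822 in BTSO at 60 DAS. Neither gene overlapped between the varieties on the days given. Cs8g20360 reached an FPKM of 1 in 12 TBO and 0 BTSO libraries and so passed the filter only through TBO, and its levels are given as a description. The other type II genes, A1 (Cs2g06650) and the external B1 (Cs2g22900), were not called on any single day, and averaged over days B1 was called lower in TBO (-0.18, limma adjusted p = 0.0019) and A1 was not called (-0.03). Electron transfer flavoprotein subunit beta (Cs9g10710) was not called between the varieties on any day, with differences from -0.07 to 0.39. Averaged over days it was not called either (0.14, limma adjusted p = 0.16).

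Mitochondrial phosphate carrier 3 (Cs7g19830), which imports phosphate for ATP synthesis, was below an FPKM of 1 in most libraries, reaching it in 6 TBO and 2 BTSO libraries. It thus passed the filter of 3 libraries only through TBO, and its levels are given as a description. At 60 DAS it was at 9.10, 7.26 and 13.5 FPKM in TBO and at 0.135, 0 and 0.135 in BTSO (log2 difference 3.29 ± 0.45, SE). At 90 DAS TBO had 1.79, 1.83 and 2.75 and BTSO 0, 0.107 and 0.499. At 0 DAS BTSO replicate 2 alone stood at 6.48, above the 0.0325 and 0.254 of its replicates. Phosphate carrier 1-like (Cs1g26730), at an FPKM of at least 1 in all 30 libraries, had the opposite sign. It was called lower in TBO at 0, 30, 60 and 90 DAS (-0.70, -0.99, -0.75 and -0.67), and not at 15 DAS (-0.09). Averaged over days its difference was -0.64 (limma adjusted p = 4.6e-08).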

How the data were processed

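Poly(A) RNA of juice sacs was sequenced as paired ends. The submitters' processing notes name HISAT2 2.0, StringTie 1.3.0 and Bowtie 0.12.2, without roles, and a mouse genome build (mm8); the methods name the sweet orange reference genome, whose build is not given in the sources used here. Strand and the treatment of reads shared by similar genes were likewise not given. The authors deposited FPKM and estimated counts per gene; 25 of the 29 genes are loci assembled by the authors without coordinates.

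Groups came from the sample titles. Log2(FPKM + 1) was fitted in limma 3.58.1 (R 4.3.3) with 10 group means over all 30 libraries and a variance trend, after dropping genes that reached FPKM 1 in fewer than 3 libraries; p-values were two-sided, adjusted by Benjamini-Hochberg over 16578 genes, and called under 0.05. A fold change on this scale understates that of genes with low FPKM. The estimated counts, deposited as whole numbers, were tested in edgeR 4.0.16 as an alternative. No exact test of 3 against 3 libraries can go below 0.1, so none was used. On data simulated for TBO against BTSO at 90 DAS over 16578 genes, limma recovered 37.3%, 83.6% and 96.7% of changes of 0.5, 1 and 2 on the log2 scale. On simulated counts edgeR recovered 5.97%, 60.3% and 100%. Only 67, 73 and 60 genes were changed at these sizes, and the simulated counts had a fixed spread not estimated from the data. These rates therefore do not tell how often either test missed a change in the data. At 90 DAS edgeR called 19 members lower and 2 higher in TBO, where limma called 13 and 2.

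Members, lists and tests were chosen with earlier results of these data known. Genes described singly were the oxidases and uncoupling proteins, the 2 most abundant genes of each other group, the 10 with the largest called differences and the 3 with the smallest interaction p; the remaining members, and the genes that are not members, were described after their values were seen. No gene matched the description used for anthocyanidin synthase, so the variety labels were not checked that way. Alternatives were other pseudocounts, filters, scalings, thresholds, samples in the fit, a replicate block, edgeR and leaving out each library.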

Additional observations from a re-analysis of the deposited data

Results flagged for a closer look

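The change of the variety difference from 0 to 90 DAS was called by limma for 2 of the other pathway genes tested, which are not members. It was 2.46 ± 0.63 (SE, adjusted p = 0.011) for phosphate carrier 3 (Cs7g19830), 1.56 (adjusted p = 0.010) without BTSO 0 DAS replicate 2, and not called when only the groups compared were fitted (adjusted p = 0.069). This gene passed the expression filter only through TBO, with 6 TBO and 2 BTSO libraries at FPKM 1 or more, so these values support nothing further. The change was 1.15 ± 0.19 (adjusted p = 0.00035) for NAD(P)H dehydrogenase A2 (Cs8g20360) and was not called by edgeR (adjusted p = 0.095). That gene was added after values were seen and passed the filter only through TBO, with 12 TBO and 0 BTSO libraries at FPKM 1 or more, so its value supports nothing further either.

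For flavoprotein 1 (Cs7g10420) every TBO library was below every BTSO library at 0, 15 and 90 DAS, with log2 differences of -0.35, -0.28 and -0.36, and every TBO library was above every BTSO library at 30 DAS (0.10). The difference between these days was not tested.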

How the results depend on the processing

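The counts of genes called between varieties and over storage stayed within 1.5 times under another pseudocount, other filters, upper-quartile and quantile scaling, a fit of only the groups compared and edgeR. With a log2 difference over 1 required, with adjusted or unadjusted p under 0.05, they were 0, 1, 2, 1 and 1 on the 5 days in order, 1 averaged over days, 4 over storage in TBO and 2 in BTSO, as few differences were that large. For the change of the variety difference, the count was 1 with upper-quartile and 2 with quantile scaling. Leaving out 1 library gave 9 to 17 genes at 0 DAS (9 without TBO replicate 1), 11 to 18 at 15 DAS (11 without BTSO replicate 2), 14 to 22 at 30 DAS (14 without TBO replicate 3), 12 to 17 at 60 and 11 to 18 at 90 DAS, 21 to 24 averaged, 15 to 21 in TBO, 16 to 18 in BTSO and 0 to 1 for the change of the difference.

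Upper-quartile scaling moved the median difference of all genes at 15 DAS from 0.13 to -0.03, and quantile scaling moved the median change in TBO from 0.16 to -0.0035. Relative to these medians the members' medians were -0.41 and -0.45 at 15 DAS and -0.42 and -0.38 in TBO. The split of calls, higher against lower, went from 3 and 14 to 1 and 20 at 15 DAS (upper-quartile) and from 5 and 16 to 2 and 17 in TBO (quantile); over all genes it went from 34.2% and 17.3% to 23.7% and 27.7%, and from 37.0% and 18.1% to 25.9% and 26.3%. Of 2236 single-gene values under the settings other than leaving out 1 library, 2095 kept their side of the threshold and, where called, their direction. The sign changed for 51 values, and 1 of these had been called: Cs7g19830 averaged over days was -0.33 in edgeR (adjusted p = 0.72).

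With the replicate block the counts were 17, 16, 21, 16 and 18 by day, 23 averaged, 21 in TBO, 17 in BTSO and 0 for the change of the difference. Deviations of libraries sharing a number had a median r of 0.015 across all genes (135 pairs, -0.30 to 0.30), against -0.0086 for other numbers, and 16 of 30 libraries correlated best with one of their own number, where 10 would if numbers carried nothing. Not every pair was over 0.1, so the numbers were not taken as pairs.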
